A study of Homo sapiens and Rattus norvegicus with 26 samples.

Results

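The endothelin system was followed here through 7 genes, the ligand genes *EDN1*, *EDN2* and *EDN3*, the converting enzyme genes *ECE1* and *ECE2*, and the receptor genes *EDNRA* and *EDNRB*, among the 43382 human and 33289 rat genes with usable counts. The family was chosen from the names of its genes and from 1 measured pattern, the opposite movement of *EDNRB* with shear in hCECs and hECs. That pattern is therefore described without a test. RNA was sequenced from 4 in vitro models of brain or generic endothelium, each kept for 72 h under high shear (12 dyne/cm2) or low shear (0.1 dyne/cm2 in the sample labels, 0.5 dyne/cm2 in the methods). The rBMECs were primary brain microvascular endothelial cells of male Sprague–Dawley rats. They were grown in medium with serum, puromycin, heparin and FGF2, and gave 4 high-shear and 4 low-shear libraries. Brains could be pooled within an isolation, and the methods describe fewer isolations than the labels have rBMEC pairs, so some pairs may share one. The other models each had 3 libraries per shear level, and all came from the iPSC line IMR90-4, so they represent a single donor genome. The hBMEC-like cells were differentiated with retinoic acid and are known to express epithelial genes. The hCECs were obtained from endothelial progenitors with the GSK3 inhibitor CHIR99021, which activates Wnt signaling and remained in the chip medium, and the hECs were obtained from the same progenitors with DMSO. Medium with FGF2 and VEGF was used for hCECs and hECs, so differences between models cannot be told apart from those of the medium.

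Endothelins are short vasoactive peptides. A long precursor is cut by furin-type proteases into an inactive intermediate, which the membrane metalloproteases ECE-1 and ECE-2 convert into the active peptide. EDNRA, the receptor of vascular smooth muscle and pericytes, binds endothelin-1 and endothelin-2 more tightly than endothelin-3 and causes contraction, while EDNRB, the receptor of endothelium and of astrocytes, binds all of them, leads to release of nitric oxide and prostacyclin, and clears the peptide. Brain endothelium is a source of endothelin-1, which acts on neighboring mural cells.

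The stretches of the human genome that encode the mature peptides are shown because they are the part by which the ligands bind their receptors, with the 4 cysteine codons of each in capitals. All lie in exon 2, on GRCh38 at chr6:12292433-12292495 (plus strand) for *EDN1*, chr1:41484061-41484123 (minus strand) for *EDN2* and chr20:59301646-59301708 (plus strand) for *EDN3*.
EDN1: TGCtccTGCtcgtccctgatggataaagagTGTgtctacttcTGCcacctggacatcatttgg
EDN2: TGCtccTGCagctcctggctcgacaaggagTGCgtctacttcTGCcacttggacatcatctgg
EDN3: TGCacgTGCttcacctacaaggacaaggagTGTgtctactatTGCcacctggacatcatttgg
Of the 63 bases, *EDN1* shared 51 with *EDN2* and 50 with *EDN3*, which gave 19 and 15 identical residues of 21. *EDN2* and *EDN3* shared 48 bases and 15 residues. The cysteines, which close the 2 disulfide bridges of the peptide, were in the same place in each.

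Library totals ranged from 9790999 to 47006272 counts. The library of hCECs at low shear, replicate 2, stood apart, with the smallest total and 6.75% of its counts in genes below the filter on low counts, against 0.0454% to 0.188% in the other libraries. The rBMEC library at high shear, replicate 1, had a summed level of 10 pan-endothelial markers of 9544 CPM (normalised read counts on library totals scaled by TMM), against 14264 to 19352 CPM in the other rBMEC libraries. Such sums lay between 10733 and 15556 CPM in hCECs and hECs but between only 62.1 and 87.6 CPM in hBMEC-like cells, in which *PECAM1* did not exceed 0.228 CPM. Epithelial markers summed to between 8447 and 11129 CPM in hBMEC-like cells, against at most 339.8 CPM in any other library. After the filter, 3 of the 7 genes remained in rBMECs (*EDN1*, *ECE1*, *EDNRB*), 5 in hBMEC-like cells (*EDN2* and *ECE2* failed) and 4 each in hCECs and hECs (*EDN1*, *ECE1*, *EDNRA*, *EDNRB*), of which 3 were tested there, *EDNRB* being described without a test.

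**Figure D1:**
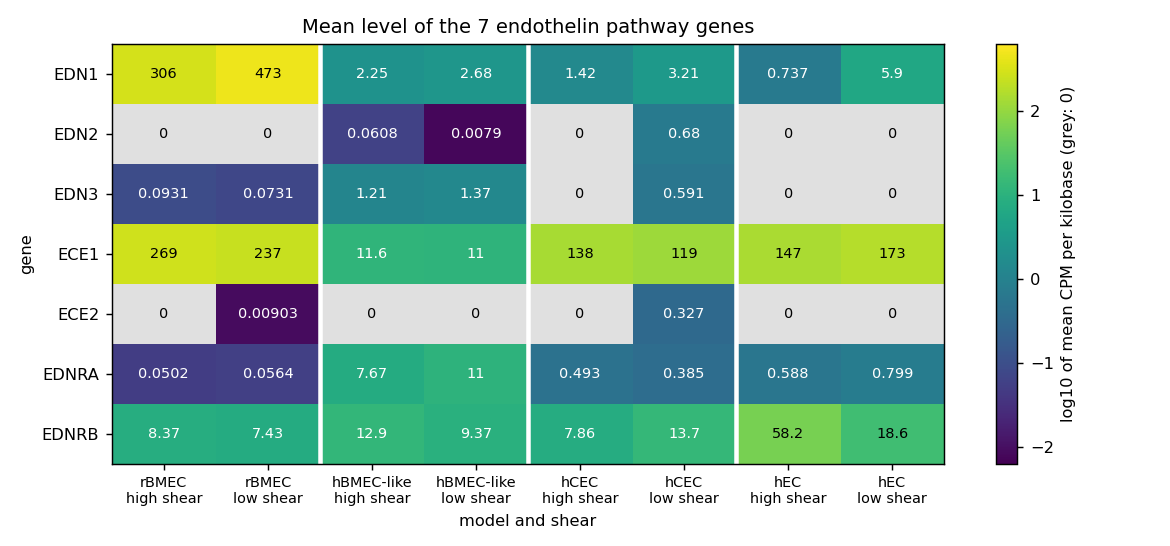
Mean level of the 7 endothelin genes in the 8 groups, in CPM per kilobase of summed exon length, printed in each cell and colored on a log10 scale, with groups whose libraries were all at 0 in grey. *ECE1* led in hCECs and hECs (119 to 173) and reached 11.6 at most in hBMEC-like cells, and *EDN1* was at 306 and 473 in rBMECs against at most 5.90 in the other groups.

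On the scale of CPM per kilobase, which allows genes to be compared, *EDN1* was the most expressed of the family in rBMECs, at 389.9 ± 107 (SD, n = 8 libraries over both shear levels), followed by *ECE1* at 253 ± 30.9. In hBMEC-like cells *ECE1* (11.3 ± 0.408), *EDNRB* (11.1 ± 2.40) and *EDNRA* (9.34 ± 3.50) were within each other's spread, above *EDN1* (2.47 ± 0.325) and *EDN3* (1.29 ± 0.193, n = 6). In hCECs and hECs the order was *ECE1* (129 ± 25.3 and 159.9 ± 15.8), *EDNRB* (10.8 ± 3.75 and 38.4 ± 24.5) and *EDN1* (2.31 ± 1.18 and 3.32 ± 3.47), with *EDNRA* lowest among those that passed the filter (0.439 ± 0.281 and 0.694 ± 0.244, n = 6 each). By mean level, *EDN1* of rBMECs stood 136 times above that of hBMEC-like cells, 216 times above that of hCECs and 416 times above that of hECs at high shear, and 176, 148 and 80.2 times above them at low shear. Part of these ratios comes from the deposited gene lengths, 1390 bases in rat and 2714 in human. In CPM, without lengths, the high-shear means were 426 in rBMECs against 6.12, 3.84 and 2.00 in the same order. No test of levels was made between rat and human, because species, annotation and model cannot be told apart.

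*EDN1* encodes endothelin-1, the main endothelin of endothelium, and lies on chromosome 6 at 12290361 to 12297194 (plus strand, GRCh38) with its coding sequence in 5 exons.

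In rBMECs, *Edn1* was at 381, 469, 362 and 492 CPM in high-shear replicates 1 to 4, against 689.7, 662, 771 and 509 CPM in the low-shear replicates. The groups did not overlap, and all 4 pairs were lower at high shear, although pair 4 differed by only 0.05 on the log2 scale (-0.05). Here and below, the share of all genes with such pairs or groups was not counted, so both are descriptions only. The fitted change was -0.62 (SE 0.18, unadjusted p = 0.012, adjusted p = 0.38 by edgeR and 0.052 by DESeq2). Of the 3 rBMEC genes tested, 0 were called by either tool and 1 (*Edn1*) had an unadjusted p under 0.05. In this model edgeR called 0.125% of all genes. Shares of all genes called, also named the background, are those of edgeR throughout. In hBMEC-like cells *EDN1* was at 6.22, 6.23 and 5.90 CPM at high shear, against 8.37, 6.67 and 6.80 CPM at low shear. That made it lower in 3 of 3 pairs there too, with a log2 change of -0.24 (SE 0.14, adjusted p = 0.29).

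In hCECs, *EDN1* was at 3.56, 2.72 and 5.26 CPM at high shear, against 6.99, 7.59 and 11.5 CPM at low shear. It was lower in each of 3 pairs without overlap, but the log2 change of -1.19 (SE 0.38) had an adjusted p of 0.18. None of the 3 genes tested in hCECs was called by edgeR or DESeq2, against 3.23% of all genes by edgeR. *EDN1* alone had an unadjusted p under 0.05 (0.012). Without replicate 2, the pair that holds the library that stood apart, *EDN1* fell by 1.05 on the log2 scale with an adjusted p of 0.0014, and *EDNRA* was called as well. Here and below, the share of all genes called in fits without a pair is not given. Calls gained or lost in them cannot be told apart from a change over all genes.

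In hECs *EDN1* was at 2.74, 1.80 and 1.47 CPM in high-shear replicates 1 to 3, against 13.4, 9.02 and 25.6 CPM in the low-shear replicates, from 50 to 86 counts at high shear and 225 to 971 at low shear. All 3 pairs were lower at high shear and the groups did not overlap. The change was -2.89 on the log2 scale (SE 0.36, adjusted p = 0.0023 by edgeR). Of the 3 members tested in hECs it was the 1 called by edgeR, where 16.1% of all genes were called. Low-shear replicate 3 was the highest, and without replicate 3 the change was -2.31.

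**Figure D2:**
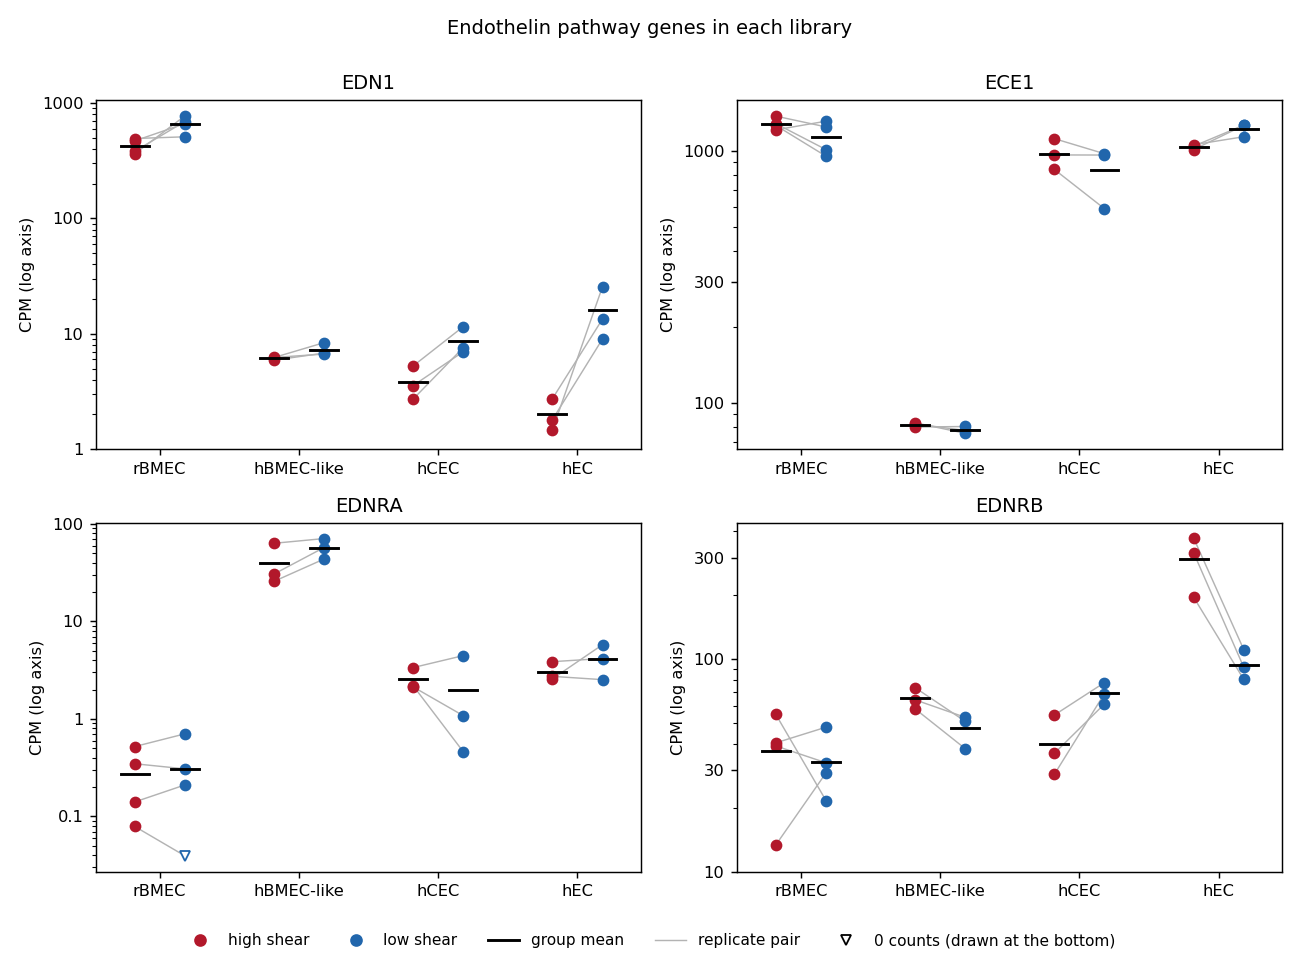
CPM on a log axis of *EDN1*, *ECE1*, *EDNRA* and *EDNRB* in every library of the 4 models, with high shear in red left of low shear in blue, grey lines between libraries of 1 replicate pair and black bars for group means. *EDN1* lines rise to the right (lower at high shear) in all 4 models, and *EDNRB* lines slope in opposite directions in hCECs and hECs. The open triangle marks a library with 0 counts.

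Whether the change of *EDN1* differed between models was tested directly, in fits that share the hEC libraries. In the fits with rBMECs, differences of model cannot be told apart from those of species and annotation. The log2 change was less negative by 2.27 in rBMECs than in hECs (SE 0.45, adjusted p = 0.029, background 4.01% called) and by 2.65 in hBMEC-like cells than in hECs (SE 0.42, adjusted p = 0.0028, background 13.6%). The first of these calls was lost when any hEC pair or rBMEC pair 2 or 4 was left out (adjusted p between 0.056 and 0.070). Between hCECs and hECs the difference was 1.72 (SE 0.50, adjusted p = 0.21 by edgeR, 0.0496 by DESeq2). There edgeR called 0 of 3 members with 2 at an unadjusted p under 0.05, over a background of 0.759%. DESeq2 called 1, for which no background is given. Between rBMECs and hCECs 0 of 4 members were called by edgeR or DESeq2 (1 at an unadjusted p under 0.05, background 1.55%), and *EDN1* differed by 0.54 (SE 0.28).

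The order of hBMEC-like cells and hECs in *EDN1* differed between shear levels. At high shear *EDN1* was higher in hBMEC-like cells than in hECs, with a log2 difference of 1.45 (SE 0.37, adjusted p = 0.0037, background 54.7%), and at low shear it was lower, with a difference of -1.32 (SE 0.36, adjusted p = 0.0060, background 55.4%). The low-shear call rested on hEC replicate 3, since without it the difference was -0.82 (adjusted p = 0.060). Against hCECs, hBMEC-like cells differed in *EDN1* by 0.48 at high shear (adjusted p = 0.27) and by -0.40 at low shear (adjusted p = 0.37).

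The promoter of *EDN1* is printed because this gene was lower at high shear in every pair of each model. RefSeq (GRCh38.p14) gives its 150 bases before the start site at chr6:12290211-12290360 (plus strand), with matches to the searched letters in capitals.
EDN1 promoter: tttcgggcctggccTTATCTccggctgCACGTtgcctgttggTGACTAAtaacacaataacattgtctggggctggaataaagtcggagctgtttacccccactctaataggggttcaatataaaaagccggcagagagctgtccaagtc
Both strands were searched for 5 motifs, and their shares were counted over 35116 promoter windows of 300 bases. The letters of the AP-1 motif, TGACTCA, occurred in 4.949% of these promoters and were not in this window. Their variant, TGACTAA, occurred in 1.902% of promoters and began here 108 bases before the start site (-108). The GATA motif, AGATAA, occurred in 10.33% of promoters and began here at -136 on the opposite strand. The core of the hypoxia response element, ACGTG, occurred in 21.41% of promoters and began here at -123 on the opposite strand. The motif of Kruppel-like factors, CACCC, occurred in 59.87% of promoters and was not in this window. No match overlapped another. A match of letters is a description of the sequence and not evidence of binding.

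The other ligand genes were scarce. *EDN3* encodes endothelin-3, known for its part in neural crest development, and was above 1 CPM in every library only of hBMEC-like cells, at 3.41, 3.98 and 2.74 CPM at high shear, against 3.71, 4.31 and 3.47 CPM at low shear. It was lower at high shear in all 3 pairs with overlapping groups (log2 change -0.19, SE 0.20, adjusted p = 0.59). It had 0 counts in all 6 hEC libraries, where 3 counts over the 3 libraries of a group set the limit, so *EDN3* was at least 123-fold higher in hBMEC-like cells than in hECs at high shear and at least 121-fold higher at low shear. At high shear it was at least 98.3-fold higher in hBMEC-like cells than in hCECs, whose libraries were all at 0. At low shear, hCECs had 55 counts in replicate 2, 1 count in replicate 3 and none in replicate 1. In rBMECs *Edn3* had between 1 and 15 counts, at most 0.493 CPM.

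*EDN2* encodes endothelin-2, an endothelin of intestinal epithelium and ovary. It had 33 counts (2.95 CPM) in hCECs at low shear, replicate 2, 10 counts (0.264 CPM) in hBMEC-like cells at high shear, replicate 3, and 1 count in hBMEC-like cells at low shear, replicate 2. All rBMEC and hEC libraries were at 0, which allows at most 0.119 CPM in rBMECs and 0.120 CPM in hECs, counting error alone. The hCEC library with reads of *EDN2*, *EDN3* and *ECE2* is the one that stood apart, and the other hCEC libraries held 1 count of *EDN3* and none of *EDN2* or *ECE2*. Within the summed ligand level per kilobase, *EDN1* made up 100% in all hEC libraries and at least 99.95% in rBMEC libraries, but only 61.6% to 65.2% at high shear and 61.0% to 69.9% at low shear in hBMEC-like cells. In hCECs it made up at least 99.7% in each library except that low-shear one, at 42.4%.

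*ECE1*, which encodes the main converting enzyme (chromosome 1, 21217247 to 21345572, minus strand), was highly expressed and changed little with shear. In rBMECs *Ece1* ranged from 1210 to 1372 CPM at high shear and from 952 to 1310 CPM at low shear (log2 change 0.19, SE 0.14, adjusted p = 0.81). In hBMEC-like cells it was at 80.0, 82.3 and 83.2 CPM at high shear, against 80.4, 77.6 and 75.5 CPM at low shear (log2 change 0.07, SE 0.049, adjusted p = 0.37).

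In hCECs it was at 962, 843 and 1117 CPM at high shear, against 961, 589 and 973 CPM at low shear (log2 change 0.24, SE 0.20, adjusted p = 0.67). It was higher in 3 of 3 pairs with overlapping groups, and the lowest value was that of the library that stood apart. In hECs it was at 1042, 1011 and 1056 CPM at high shear, against 1264, 1261 and 1136.5 CPM at low shear. All 3 pairs were lower and the groups did not overlap, with a log2 change of -0.23 (SE 0.083, adjusted p = 0.11 by edgeR and 0.038 by DESeq2). Without replicate 3 the adjusted p was 0.031 by edgeR.

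The change in hBMEC-like cells was above that in hECs by 0.31 on the log2 scale (SE 0.088, adjusted p = 0.044), a call that was lost with library totals alone, without the block, and without hEC pair 1 or 2 or any hBMEC-like pair (adjusted p between 0.056 and 0.17).

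Levels of *ECE1* divided the human models far more than shear did. It was lower in hBMEC-like cells than in hECs by 14.2-fold at high shear (log2 difference -3.83, SE 0.21, adjusted p = 6.06e-10) and 17.8-fold at low shear (-4.15, SE 0.22, adjusted p = 2.76e-10). Against hCECs, hBMEC-like cells were 13.6-fold lower in *ECE1* at high shear (background 57.1% called) and 12.0-fold lower at low shear (background 54.9%), with adjusted p-values of 6.58e-10 and 1.06e-09. At low shear the median difference of all genes was itself -0.28 between these models and 0.12 between hCECs and hECs. Between hCECs and hECs at high shear, 0 of 4 members were called by edgeR or DESeq2 (1 at an unadjusted p under 0.05, background 14.1%), and *ECE1* differed by -0.07 (SE 0.19). At low shear edgeR called 0 of 4 there (background 11.6%), although all 4 had an unadjusted p under 0.05 and DESeq2 called 2. These were *ECE1* (log2 difference -0.57, adjusted p = 0.060 by edgeR and 0.0075 by DESeq2) and *EDN3*, which was at 0 in all hEC libraries and rested on the 55 counts of the hCEC library that stood apart. With RLE scaling or library totals alone, or without any hCEC replicate, *ECE1* was called there as well.

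*ECE2*, whose product converts endothelin precursors at acidic pH, was close to absent. Of the human libraries only hCECs at low shear, replicate 2, had reads (37 counts), and of the rBMEC libraries none at high shear and 3 at low shear, with 2, 1 and 2 counts. The human value is uncertain, because the gene (chromosome 3, 184276011 to 184293031) shares exons with a read-through gene, *EEF1AKMT4-ECE2*, so that reads on both can be dropped in counting. The read-through gene was at 0 in each human library too, whereas the neighboring *EEF1AKMT4* had 14 to 162 counts. Per kilobase, *ECE1* exceeded *EDN1* in hECs by a median of 216 times at high shear and 36.2 times at low shear, with ranges that did not overlap (147 to 277 and 17.1 to 53.8). In rBMECs the ratio of *Ece1* to *Edn1* was 0.749 to 1.05 at high shear and 0.446 to 0.547 at low shear. The transcript of the enzyme was thus below that of its substrate in every low-shear library. At high shear it was above it only in replicate 1 (1.05), the rBMEC library that stood apart in endothelial markers.

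*EDNRA* encodes the contractile receptor (chromosome 4, 147480917 to 147544954, plus strand). In rBMECs *Ednra* had at most 20 counts in a library (0.703 CPM) and failed the filter. In hBMEC-like cells it was at 25.8, 30.6 and 63.3 CPM at high shear, against 43.7, 57.3 and 70.8 CPM at low shear. It was lower in each pair, while the groups overlapped, with replicate 3 the highest at both shear levels. It fell by 0.58 on the log2 scale (SE 0.088, adjusted p = 3.33e-05), in a model with 15.0% of all genes called. The SE is that of the fit and no direct measure of the spread between pairs. The pairs changed by -0.76, -0.90 and -0.16 (SD 0.39). Without the replicate block the adjusted p was 0.49, and with DESeq2 it was 0.055.

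In hCECs *EDNRA* was at 2.13, 3.37 and 2.19 CPM at high shear, against 1.08, 4.46 and 0.461 CPM at low shear. Replicates 1 and 3 were higher and replicate 2 was lower at high shear, with a log2 change of 0.92 (SE 0.78, adjusted p = 0.67). Without replicate 2 the change was 1.55 with an adjusted p of 0.025, on 13 to 66 counts. In hECs it was at 2.74, 3.87 and 2.58 CPM at high shear, against 2.53, 4.17 and 5.78 CPM at low shear (log2 change -0.40, SE 0.29, adjusted p = 0.43).

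The level of *EDNRA* was higher in hBMEC-like cells than in the other human models, the opposite direction to *ECE1*. It was 11.6-fold higher in hBMEC-like cells than in hECs at high shear (log2 difference 3.53, SE 0.54, adjusted p = 4.86e-05) and 12.1-fold higher at low shear (3.60, SE 0.54, adjusted p = 3.82e-05). It was 13.7-fold higher than in hCECs at high shear and 30.9-fold higher at low shear, with adjusted p-values of 2.78e-05 and 4.00e-06. Without hCEC replicate 2 the log2 difference at low shear was 6.03 instead of 4.95. The hBMEC-like libraries also had the highest sums of markers of cells that carry this receptor in tissue. Their 10 mural markers summed to 1067 to 1289 CPM at high shear and 903 to 1004 CPM at low shear, and their 5 fibroblast markers to 4054 to 4321 CPM and 3317 to 3629 CPM, against at most 778 and 1042 CPM in libraries of the other models. Of the mural markers *RGS5*, *TAGLN*, *ACTA2* and *CNN1* rose with shear there (log2 changes 0.61, 0.45, 0.43 and 0.29), while *CSPG4* was at 1.39 to 3.53 CPM at high shear and 3.09 to 3.62 CPM at low shear. Of the fibroblast markers 4 rose and *PDGFRA* fell (-0.36), as *EDNRA* did. *MYH11*, a defining marker of smooth muscle, was at 0 in every hBMEC-like library. *RGS5*, *ACTA2*, *CSPG4*, *ABCC9* and *MYH11* reached their highest values in another model, and the other mural markers in hBMEC-like cells. The part of such cells in the level of *EDNRA* was not tested, and in bulk RNA fewer cells of a type and less RNA per cell cannot be told apart.

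*EDNRB*, the endothelial receptor, lies on chromosome 13 at 77895481 to 77975529 (minus strand). In hCECs it was at 28.7, 36.0 and 54.5 CPM at high shear, against 68.8, 61.5 and 77.5 CPM at low shear. Each pair was lower at high shear, and the highest high-shear value lay below the lowest low-shear value. In hECs it was at 316.5, 371 and 195.5 CPM at high shear, against 91.5, 111 and 80.3 CPM at low shear, so each pair was higher there (3.46, 3.35 and 2.44 times) and the groups again did not overlap.

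The fitted log2 changes of *EDNRB* were -0.85 (SE 0.16) in hCECs and 1.61 (SE 0.11) in hECs, a difference of -2.43 (SE 0.23) for hCECs minus hECs. Since this pattern chose the family, no test is given for it. Leaving out each pair in turn gave changes between -1.02 and -0.63 in hCECs and between 1.51 and 1.77 in hECs, and without hCEC replicate 2 the change in hCECs was -0.87. These ranges describe the values that chose the family and are no independent support for the pattern. In level, hCECs differed from hECs by -2.87 on the log2 scale at high shear (SE 0.26), where the level in hCECs was 7.31-fold lower, and by -0.49 at low shear (SE 0.25).

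**Figure D3:**
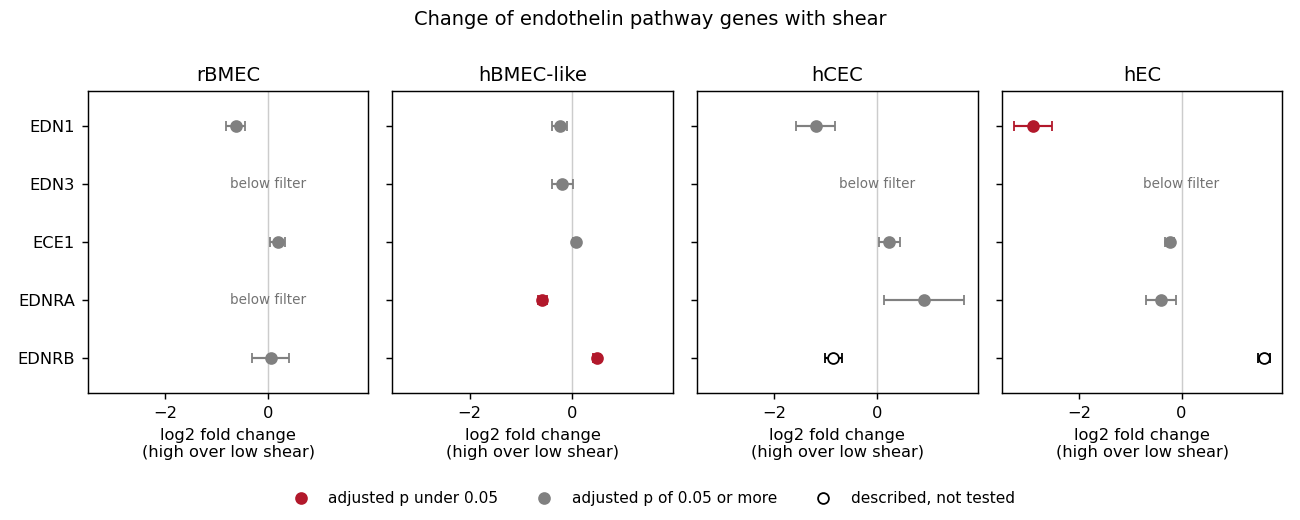
Log2 fold change of high over low shear (points) with SE (bars) for the 5 endothelin genes that passed the filter in at least 1 model, by model, with called changes in red, other tested changes in grey and open circles for *EDNRB* in hCECs and hECs, which is described without a test. *EDN1* lies left of 0 in each model (-2.89 in hECs), and *EDNRB* lies at -0.85 in hCECs and 1.61 in hECs.

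The pattern that chose the family did not use rBMECs or hBMEC-like cells, although the members were chosen with earlier results of these data known. In hBMEC-like cells *EDNRB* was at 73.4, 64.3 and 58.3 CPM at high shear, against 50.9, 53.2 and 37.9 CPM at low shear. It was higher in 3 of 3 pairs without overlap and rose by 0.47 on the log2 scale (SE 0.062, adjusted p = 4.49e-06). The call was kept by DESeq2 (adjusted p = 4.30e-07) but not without the replicate block (0.21). In rBMECs *Ednrb* was at 13.4, 39.0, 54.9 and 40.4 CPM at high shear, against 29.1, 32.5, 21.6 and 47.8 CPM at low shear.

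Those rBMEC values overlapped fully, with 2 pairs up and 2 down, and the log2 change was 0.06 (SE 0.36, adjusted p = 0.99, approximate 95% interval from -0.64 to 0.76). The lowest was the library that stood apart in endothelial markers, and without pair 1 the change was 0.45 (adjusted p = 0.56), while without pair 3 it was -0.36 (0.97). Given side by side and without a test, because they share the hEC or hCEC libraries that chose the family, the differences in log2 change from hECs were -1.54 (SE 0.48) for rBMECs and -1.13 (SE 0.14) for hBMEC-like cells, and those from hCECs were 0.88 (SE 0.48) and 1.24 (SE 0.21).

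In level, hBMEC-like cells differed from hECs in *EDNRB* by -2.34 on the log2 scale at high shear (SE 0.26) and -1.17 at low shear (SE 0.25), and from hCECs by 0.53 at high shear (SE 0.25) and -0.69 at low shear (SE 0.25). These differences too are given without a test, since they rest on hEC and hCEC values that chose the family.

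In the order of *EDNRB* levels per kilobase over both shear levels, hECs came first (38.4 ± 24.5), and hBMEC-like cells (11.1 ± 2.40), hCECs (10.8 ± 3.75) and rBMECs (7.90 ± 3.08) followed within each other's spread. The antisense gene *EDNRB-AS1* had at most 31 counts in a human library, and with the strand setting of the counting not given its reads and those of *EDNRB* cannot be told apart where they overlap. In hECs, pan-endothelial markers summed to 11542 to 13618 CPM at high shear and 14298 to 15556 CPM at low shear, mural markers to 398 to 627 and 633 to 778 CPM, and fibroblast markers to 114 to 529 and 312 to 1042 CPM. Of the 7 mural genes tested in hECs, *TAGLN*, *NOTCH3*, *CNN1* and *PDGFRB* fell (log2 changes -2.54, -1.15, -3.10 and -1.07). The sums were thus lower at high shear, with overlap for the fibroblast markers alone, while *EDN1* was lower and *EDNRB* higher. Single markers did not all follow their sums. Of the pan-endothelial markers called in hECs, *VWF* and *KDR* fell (log2 changes -1.16 and -0.52) but *EMCN* rose (3.13). The mural marker *ACTA2* was at 8.87 to 17.98 CPM at high shear and 6.58 to 13.62 CPM at low shear in hECs. The 7 glial and neural markers summed to 167 to 257 CPM at high shear and 152 to 312 CPM at low shear in hCECs, and to 192 to 251 and 184 to 237 CPM in hECs, of which the neuronal gene *TUBB3* made up most (159 to 249 and 109 to 307 CPM in hCECs, 178 to 244 and 178 to 233 CPM in hECs). The astrocyte markers *GFAP* and *AQP4* reached at most 0.314 CPM and 0 CPM in hCECs at high shear, and 0.219 and 0.0418 CPM in hECs. In hCECs at low shear they ranged from 0.0386 to 8.39 CPM and from 0 to 2.77 CPM. Both were highest in replicate 2, the hCEC library that stood apart. The part of these cells in either change was not tested.

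The promoter of *EDNRB* is shown because the levels of this gene shifted in opposite directions with shear in hCECs and hECs. RefSeq (GRCh38.p14) gives 150 bases before the start site at chr13:77918832-77918981 (minus strand, printed 5′ to 3′ along the gene), with matches to the same letters in capitals.
EDNRB promoter: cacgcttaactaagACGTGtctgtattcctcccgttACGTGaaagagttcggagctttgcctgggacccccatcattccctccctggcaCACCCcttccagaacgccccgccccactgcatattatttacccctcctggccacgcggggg
ACGTG began at -136 and -114 and CACCC at -61 from the start site, and neither form of the AP-1 letters nor the GATA letters occurred in this window.

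The balance of the receptors followed from both genes. Per kilobase, *EDNRB* made up 96.9% to 99.9% of the summed receptor transcripts at high shear and 98.1% to 100% at low shear in rBMECs, 91.7% to 96.2% and 93.4% to 99.4% in hCECs, and 98.7% to 99.2% and 93.5% to 97.4% in hECs. hBMEC-like cells had a mixed complement, at 74.6%, 68.4% and 48.7% at high shear, against 54.6%, 48.9% and 35.5% at low shear in replicates 1 to 3. The share was higher at high shear in each hBMEC-like and each hEC pair and lower in each hCEC pair. The hBMEC-like groups and the hCEC groups overlapped and the hEC groups did not. In hCECs the share rested on 63 to 93 counts of *EDNRA* at high shear and 13 to 50 at low shear. In hECs and hCECs it holds the *EDNRB* values that chose the family, so its opposite movement there repeats that pattern and is no independent support.

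**Figure D4:**
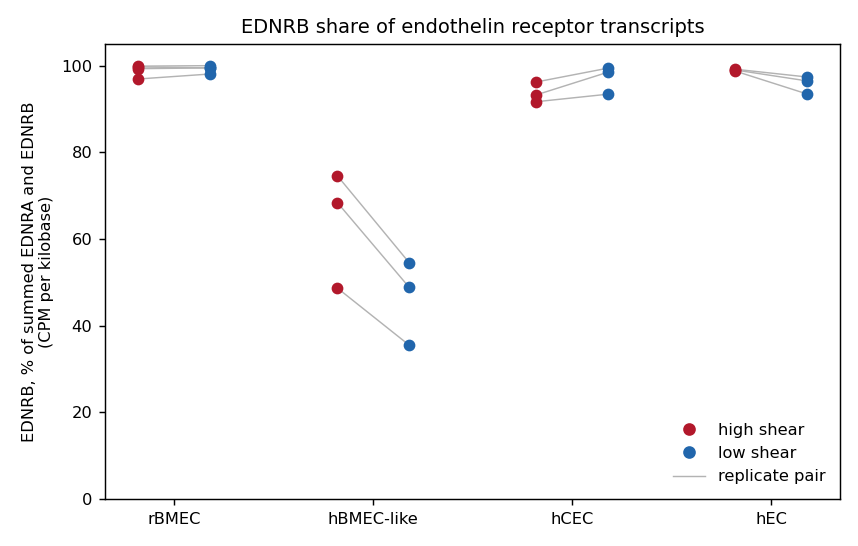
Share of *EDNRB* in the sum of *EDNRA* and *EDNRB* (percent, CPM per kilobase) in every library by model, with high shear in red left of low shear in blue and grey lines between libraries of 1 replicate pair. Shares are at least 91.7% in rBMECs, hCECs and hECs, and hBMEC-like cells lie between 35.5% and 74.6%.

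Of the other differences between models in the change with shear, edgeR called 1 member for rBMECs against hECs (*EDN1*), 2 for hBMEC-like cells against hECs (*EDN1* and *ECE1*) and 1 for hBMEC-like cells against hCECs, where 4.54% of all genes were called. The last was *EDN3*, and it rested on the 55 counts of hCECs at low shear, replicate 2. Without that pair it was not called (adjusted p = 0.56), and *EDNRA* (log2 difference -2.11, adjusted p = 0.0021) and *EDN1* (0.81, adjusted p = 0.031) were called. The share of all genes called in that fit is not given.

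The genes that process and break down endothelins formed a list of 10, of which 8 passed the filter in each model. In hBMEC-like cells 3 rose and 0 fell (*MMP2*, *FURIN* and *MME*, by 0.53, 0.29 and 0.24), with a median log2 change of 0.14 against -0.0041 for all genes. The counts in this and the next lists are read against the shares of all genes called by edgeR. These were 0.125% in rBMECs, 15.0% in hBMEC-like cells, 3.23% in hCECs and 16.1% in hECs. In hCECs 1 fell, *PCSK6*, which encodes a furin-type convertase (-1.37), and in hECs 3 fell, *MME*, *PCSK6* and *PCSK5* (-1.55, -0.81 and -0.60), with a median of -0.25. *MME* encodes neprilysin, which degrades endothelin-1. In rBMECs 0 of 8 were called by edgeR, with 2 at an unadjusted p under 0.05, and 2 by DESeq2.

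The list of signaling genes downstream of the receptors held 22, of G protein subunits, phospholipases C, inositol trisphosphate receptors and arrestins among others. In hBMEC-like cells, over a background of 15.0%, 5 rose, among them *PLCB4*, *ARRB1* and *ITPR2* (0.35, 0.28 and 0.19), and *ARRB2* fell (-0.30). In hCECs 1 of 22 rose (*PLCB4*, 0.56), near the background of 3.23%. In hECs, over a background of 16.1%, 3 rose and 3 fell, the largest being the rise of the phospholipase gene *PLCB1* (1.62) and the falls of the calcium channel genes *ITPR2* and *ITPR1* (-1.64 and -1.22) and of *PRKCE* (-0.50). The list's medians were 0.12, 0.17 and -0.01 in hBMEC-like cells, hCECs and hECs, and in rBMECs 0 of 21 tested were called by edgeR or DESeq2 (2 at an unadjusted p under 0.05, median 0.04).

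Of 18 transcription factor genes tied to *EDN1* transcription, all tested in each model, 1 rose in rBMECs (*Klf4*, 1.41, background 0.125%), 6 rose in hBMEC-like cells (background 15.0%), 4 rose in hCECs (background 3.23%), and 3 rose and 3 fell in hECs (background 16.1%). *KLF2* and *KLF4*, the flow-induced factors of endothelium, were among them in hCECs (2.13 and 3.07) and in hECs (1.14 and 1.19). The AP-1 gene *FOSL1* and *SMAD3* rose too in hCECs (0.81 and 0.85), while in hECs the AP-1 gene *FOSL2* and *FOXO1* fell (-0.54 and -0.55). In hBMEC-like cells *FOSL2*, *HIF1A*, *JUN* and *FOXO1* rose (0.48, 0.26, 0.28 and 0.26), and so did *KLF2* (2.72). The list's medians were 0.03, 0.13, 0.19 and 0.01 in rBMECs, hBMEC-like cells, hCECs and hECs. The call in rBMECs was lost without pair 2, 3 or 4, and DESeq2 called 2 genes there.

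Among 23 genes of other vasoactive peptide systems, 16 were tested in hBMEC-like cells, where 1 rose and 2 fell, near the background of 15.0%, and 13 in hECs, where 2 rose and 5 fell with a median of -0.57, over a background of 16.1%. In hECs the natriuretic peptide gene *NPPC* and the clearance receptor gene *NPR3* fell by 2.89 and 2.67, *ACE* by 1.85 and *ADM*, which encodes adrenomedullin, by 0.94, so *EDN1* was not the only vasoactive gene that fell there. In hCECs 0 of 11 were called by edgeR (6 at an unadjusted p under 0.05) and 5 by DESeq2, and in rBMECs 0 of 10 by either tool (1 at an unadjusted p under 0.05).

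The counts in these lists depended on single pairs. The shares of all genes called under the settings below are not given. A change in a list therefore cannot be told apart from a change over all genes. Without hCEC pair 2, 2 rose and 1 fell among processing genes in hCECs, 3 rose and 2 fell among signaling genes, 6 rose and 3 fell among *EDN1* regulators, and 4 rose and 3 fell among other peptide genes. Without hCEC pair 1 or 3, 0 signaling genes rose and 1 fell, 1 gene of the other peptide systems fell, and 2 or 3 regulators rose. Without hEC pair 1, 1 processing gene fell in hECs, 1 signaling gene rose and 2 fell, and 2 regulators rose and 1 fell. Without hBMEC-like pair 2, 1 signaling gene rose and 1 fell in hBMEC-like cells, and without pairs 1, 2 and 3 in turn 0, 1 and 1 genes of the other peptide systems were called. Without the replicate block hBMEC-like cells had 0 calls in all 4 lists, hECs had 1 among processing genes, and hCECs had 0 there. With DESeq2 hCECs had 2 rises and 1 fall among processing genes and 0 calls among signaling genes, and hBMEC-like cells had 0 among other peptide genes.

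Over the 18 human libraries, the genes whose log2(CPM + 1) was most like that of a member, among 11414 genes with a mean of at least 5 CPM, were *PUS7*, *WNT5A* and *RASSF8* for *EDN1* (Pearson r 0.80, 0.77 and 0.76), *NOTCH1*, *FES* and *NOL4L* for *ECE1* (each 1.00 after rounding), *FGFBP3*, *QPRT* and *ADGRL1* for *EDNRA* (each 0.98), and *MFSD6*, *SPRED2* and *UBALD2* for *EDNRB* (0.91, 0.88 and 0.88). These are descriptions over 3 models that share a cell line, so for *ECE1* and *EDNRA* they mainly repeat the step between hBMEC-like cells and the other human models.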

How the data were processed

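RNA sequencing counts of 26 libraries were used. The authors aligned reads with STAR 2.7.9a (hg38 for human, rn7 for rat in the methods, while the labels name hg38 for all) and counted them per gene with featureCounts 2.0.3, and the deposited values are whole-number counts without normalization. The annotation and the strand setting of the counting were not given in the sources used here. Of 43388 human and 33294 rat genes, 6 and 5 had empty cells and were left out. Deposited gene lengths (in bases of summed exons) gave CPM per kilobase.

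Within each model, high-shear libraries were set against low-shear libraries by edgeR 4.0.16 in R 4.3.3 (quasi-likelihood F test, TMM, filterByExpr with a minimum count of 10 and total of 15, replicate number as a block, Benjamini-Hochberg over all genes kept, called at an adjusted p under 0.05). SEs were obtained from the log2 change and its F statistic (size of the change over root F), so they are no direct measure of the spread between pairs. Differences between models were tested as interactions of shear and model with replicates as blocks within models, rat genes matched by upper-cased symbol, and human levels in 1 fit of 18 libraries. DESeq2 1.42.0, RLE scaling, library totals alone, no filter, no block and omission of each replicate were the alternatives. CPM in each model used that model's own TMM factors.

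The methods state the pairing by replicate. In its check, libraries of the same number correlated best across genes after removal of group means, with the exceptions of hCEC replicate 2 (r = 0.053, below the 0.067 reached with a different number) and rBMEC replicate 4 (0.099, below 0.333). Per the methods, replicates were separate differentiations or isolations.

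All 7 members are described in each model. From each other list, up to 4 genes per model with the smallest p among those called were named, and 3 genes per member for likeness. Cell type markers outside this rule were named as examples, and *KLF2* in hBMEC-like cells was named after its value was seen. The members and lists were chosen with earlier results of these data known. The procedure was tested on simulated data. Gene positions are those of GENCODE release 44, promoters those of RefSeq. All values depend on depth, and limits set by 3 counts cover counting error only.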

Additional observations from a re-analysis of the deposited data

Results flagged for a closer look

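Differences between models in the change with shear drew attention in 5 cases. For *EDN1*, the log2 change was above that of hECs by 2.27 in rBMECs and by 2.65 in hBMEC-like cells, both by a test of the difference, with 4 of 4 rBMEC pairs, 3 of 3 hBMEC-like pairs and 3 of 3 hEC pairs lower at high shear. In the difference of rBMECs and hECs, species, annotation and model cannot be told apart. For *ECE1*, the difference between hBMEC-like cells and hECs was 0.31, with 2 of 3 hBMEC-like pairs higher and 3 of 3 hEC pairs lower at high shear.

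For *EDN3*, the fitted difference between hBMEC-like cells and hCECs was 7.95, a value that depends on the prior count because most hCEC libraries were at 0 and is no measure of size. It rested on 1 library, hCECs at low shear, replicate 2. For *EDNRB*, the difference of hCECs minus hECs was -2.43, with 3 of 3 hCEC pairs lower and 3 of 3 hEC pairs higher at high shear. This difference was not tested, because it chose the family.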

How the results depend on the processing

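No result changed its sign past the threshold under any alternative. Counts of called members moved in these cases, given without the shares of all genes called under the same settings. Without the replicate block, there were 0 calls instead of 2 for shear in hBMEC-like cells, 1 instead of 2 for the difference of hBMEC-like cells and hECs, and 0 instead of 1 for that of hBMEC-like cells and hCECs, and the block changed no other count of member calls. With DESeq2, counts were 1 against 2 for shear in hBMEC-like cells, 2 against 1 in hECs, 1 against 0 for the difference of hCECs and hECs, 0 against 1 for that of hBMEC-like cells and hCECs, and 2 against 0 for low-shear levels of hCECs and hECs. Those low-shear levels also gave 1 with RLE scaling, 2 with library totals alone and 1 without the filter. Library totals gave 1 for the difference of hBMEC-like cells and hECs, and no filter gave 2 for that of hBMEC-like cells and hCECs.

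Omission of 1 replicate gave 0 to 2 calls for shear in hCECs, 1 to 2 in hECs, 0 to 1 for the difference of rBMECs and hECs, 1 to 2 for that of hBMEC-like cells and hECs, 0 to 2 for that of hBMEC-like cells and hCECs, and 0 to 1 at high shear and 0 to 3 at low shear for levels of hCECs and hECs. The causes were not tested, beyond the fewer libraries in each such fit. The scarce genes *EDN2*, *EDN3* and *ECE2* were limited by depth.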
